A study of Mus musculus with 12 samples.

Results

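The levels of 30 mouse genes of cholesterol metabolism were compared in regenerating muscle, chosen by gene symbol from the 54532 rows of the gene count table. They comprise 18 enzymes of cholesterol synthesis, 7 genes of sterol sensing and cholesterol uptake, and 5 genes of efflux and storage. RNA came from whole lysates of the tibialis anterior, a muscle of the front of the lower leg, taken 5 days after glycerol was injected to injure it. In 6 samples, called knockout here, the genotype is labelled FAP no ppary: the nuclear receptor gene Pparg had been deleted conditionally in fibro-adipogenic progenitors (FAPs), the mesenchymal cells of muscle that can turn into fat cells. The other 6 samples, called control, are labelled Wildtype. All 12 carry the strain label 129svlmJ and received glycerol, so no uninjured muscle was compared. The Cre driver, the age and the sex of the mice are not given in the sources used here, nor is it stated that the samples of a group are separate animals, so p-values measure the spread between these samples only.

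Cells make cholesterol from acetyl-CoA through mevalonate, squalene and lanosterol. When membrane sterol is low, the escort protein Scap carries the transcription factor SREBP2, the product of Srebf2, to the Golgi, where it is cut and released to switch on the synthesis genes; the Insig proteins hold Scap back when sterol is plentiful, and Insig1 is itself a target of the SREBP factors. When sterol is in excess, its oxidised derivatives activate the liver X receptors (LXR, genes Nr1h2 and Nr1h3), which raise the exporters Abca1 and Abcg1. In injured muscle, macrophages that clear dead fibres take up membrane cholesterol, and new fat cells store it in their droplets.

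The comparison of knockout with control asks how these genes stand in injured muscle whose FAPs lack Pparg. Library totals ranged from 15716056 to 29790720 counts, and levels are given as CPM, read counts scaled to a common library size after TMM scaling, the usual correction for library composition. Pparg stood at 26.4 ± 10.3 CPM in knockout and 57.4 ± 8.27 CPM in control (SD, n = 6 each), lower in 6 of 6 knockout libraries than in every control (log2 fold change -1.12, SE 0.21, adjusted p = 0.0299, edgeR). The labels name no batch. In whole muscle, fewer cells of a type and less RNA per cell cannot be told apart, here and for every gene below. Of 10 adipocyte markers, 3 fell with an adjusted p under 0.05 (Lpl, Fabp4 and Adrb3, edgeR), against 0.75% of all tested genes. All 10 had a negative log2 fold change (median -1.69), and 9 an unadjusted p under 0.05, against 5.68% of all genes. In 8 of 10 every knockout library lay below every control, against 1.27% of all genes. None was at 0 in any library. Their summed level was 712 to 2652 CPM in knockout and 3740 to 5801 CPM in control. Most of this sum is Fabp4, at means of 724 CPM in knockout and 2238 CPM in control, and Lpl, at 563 and 1307 CPM. None of 12 macrophage markers had an adjusted p under 0.05, and their sums of 6011 to 10461 CPM in knockout spanned the control range of 8067 to 9284 CPM. The 8 FAP markers summed to 3717 to 6426 CPM in knockout and 4170 to 6032 CPM in control, and the 8 myogenic markers to 11425 to 26297 CPM in knockout and 11964 to 22193 CPM in control, none of them past the test. The FAP sum is mostly Col1a1, at 3884 CPM in knockout and 3937 CPM in control. Of the FAP markers, 7 of 8 had a negative log2 fold change (median -0.23), with an unadjusted p under 0.05 for Dpt (-0.67), Lum (-0.52) and Dcn (-0.48; adjusted p from 0.153 to 0.305 for the 3, edgeR). All 8 myogenic markers had a positive log2 fold change (median 0.30), with an unadjusted p under 0.05 for Myod1 (0.56), Myog (0.42) and Mymk (0.29; adjusted p from 0.160 to 0.452 for the 3, edgeR). The part of these cells in the results below was not tested. Of 4 keratinocyte markers, Krt14, Krt5 and Krt1 were at 0 in at least 1 library, and the 4 summed to 3.16 to 6.37 CPM in knockout and 3.65 to 5.38 CPM in control.

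Promoters of 4 genes are printed because they bear on the results below: Hmgcs1, Insig1 and Acat2 are the genes that fell, and Abca1 is the classic LXR target. The sequences are RefSeq promoters of GRCm38.p6, on the strand of the gene, 5′ to 3′, from 250 bases before the start site. Capitals mark matches on either strand to TCACNCCAC, a core of the sterol regulatory element (SRE) bound by SREBP, to CCAAT, the box of NF-Y, to GGGCGG, the box of Sp1, and to a direct repeat of the LXR type (GGTNA, 5 bases, GGTNA; called DR4). Positions below count from the start site as 0.
Hmgcs1: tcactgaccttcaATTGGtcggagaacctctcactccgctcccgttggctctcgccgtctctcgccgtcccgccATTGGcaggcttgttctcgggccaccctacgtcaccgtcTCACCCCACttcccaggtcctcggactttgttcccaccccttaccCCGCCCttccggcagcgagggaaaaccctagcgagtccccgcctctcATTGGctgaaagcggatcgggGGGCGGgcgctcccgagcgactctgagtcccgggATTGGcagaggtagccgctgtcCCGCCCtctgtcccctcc
Insig1: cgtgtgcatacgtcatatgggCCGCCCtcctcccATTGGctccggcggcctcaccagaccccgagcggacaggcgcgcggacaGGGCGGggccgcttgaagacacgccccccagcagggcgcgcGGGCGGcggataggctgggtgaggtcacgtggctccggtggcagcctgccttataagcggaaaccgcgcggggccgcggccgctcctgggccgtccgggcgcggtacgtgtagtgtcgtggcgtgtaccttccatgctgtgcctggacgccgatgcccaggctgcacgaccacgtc
Acat2: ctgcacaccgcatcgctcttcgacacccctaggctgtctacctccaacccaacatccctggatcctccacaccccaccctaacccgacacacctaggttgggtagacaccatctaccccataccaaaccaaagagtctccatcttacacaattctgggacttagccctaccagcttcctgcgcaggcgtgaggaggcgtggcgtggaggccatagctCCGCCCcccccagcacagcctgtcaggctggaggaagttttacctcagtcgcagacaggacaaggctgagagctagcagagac
Abca1: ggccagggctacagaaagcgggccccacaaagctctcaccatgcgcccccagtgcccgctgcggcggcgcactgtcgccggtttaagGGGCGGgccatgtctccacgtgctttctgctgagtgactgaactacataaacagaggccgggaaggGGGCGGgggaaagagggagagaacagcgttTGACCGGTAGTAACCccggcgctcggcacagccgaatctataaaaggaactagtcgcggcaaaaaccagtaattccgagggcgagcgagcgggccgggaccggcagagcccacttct
These stretches are chr13:119690101-119690400 (plus strand) for Hmgcs1, chr5:28071162-28071461 (plus) for Insig1, chr17:12960676-12960975 (minus) for Acat2 and chr4:53159846-53160145 (minus) for Abca1.

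The Hmgcs1 promoter held the SRE core at -137 to -129, with NF-Y boxes at -176 to -172 and -45 to -41 among its 4. The Insig1 stretch held 1 NF-Y box and 3 Sp1 boxes, and the Acat2 stretch 1 Sp1 box, at -33 to -28. The Abca1 promoter held the DR4 repeat at -67 to -53 on the opposite strand. RefSeq promoters were matched for 24 of the 30 genes, 31 promoters in all. The SRE core was in 1 of these 31 and in 1.24% of all 32851 promoters, and the DR4 repeat in 1 of 31 and in 0.718% of all. NF-Y boxes were in 19 of 31 (61.3%) against 37.4% of all promoters, and Sp1 boxes in 24 of 31 (77.4%) against 35.7%. A match describes letters and is not a measured binding site, and no match says only that these letters are not in this window. No promoter is shown for Sqle, Fdps, Fdft1, Abcg1, Stard4 and Npc1.

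**Figure D1:**
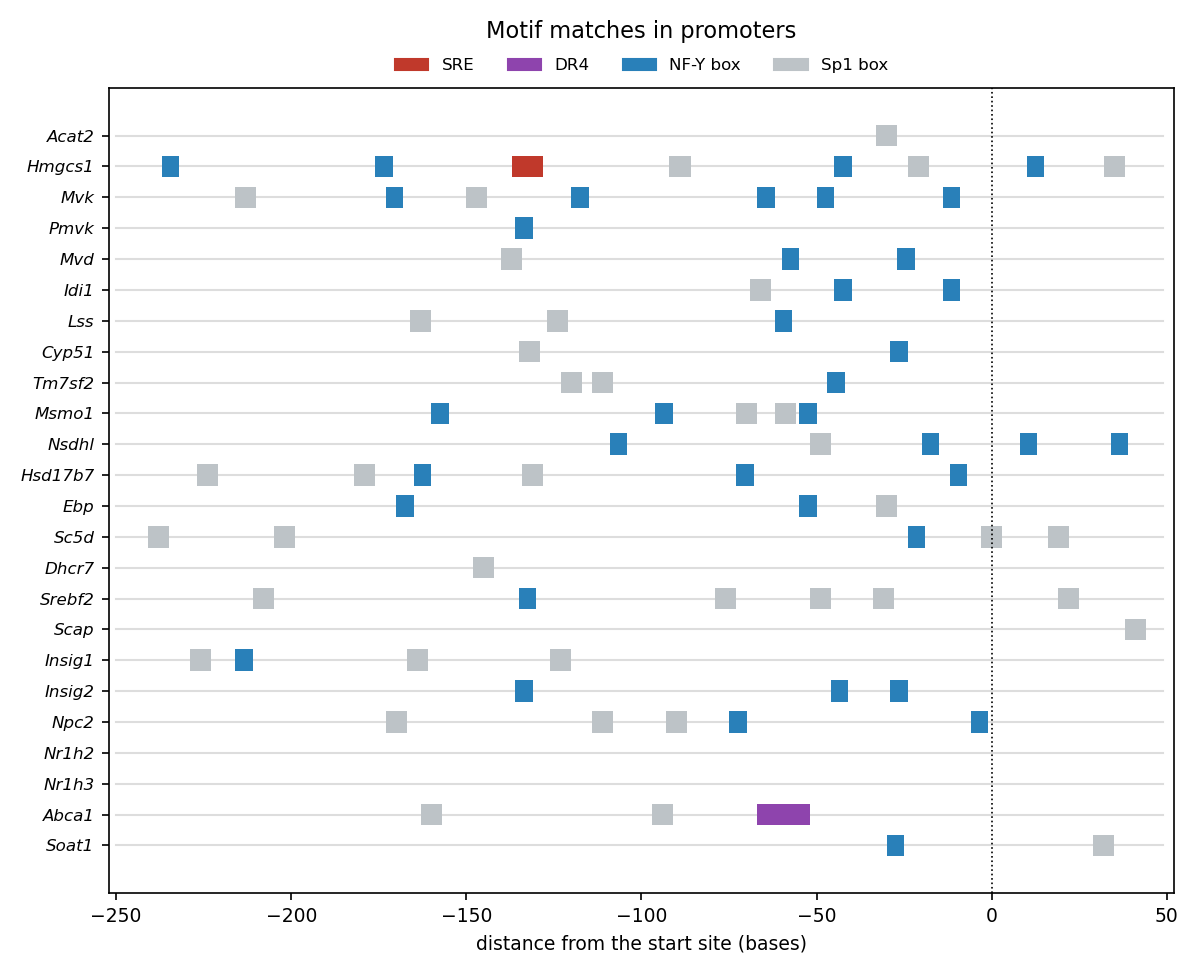
Motif matches in the promoters of the 24 genes with a RefSeq promoter, each drawn from 250 bases before to 50 after its start site (x axis, bases; dotted line, start site) and coloured by motif. The SRE core stands only in the Hmgcs1 row and the DR4 repeat only in the Abca1 row; the promoters shown for Nr1h3 and Tm7sf2 lie 7718 and 9347 bases from the gene start in the count table.

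All 30 genes passed the filter on low counts and were tested in a fit across 16393 genes. Hmgcs1, Acat2 and Insig1 fell, 0 genes rose, and 27 did not pass an adjusted p of 0.05 (edgeR quasi-likelihood test, Benjamini-Hochberg over all tested genes). Over all tested genes 0.75% were called lower and 0.0488% higher. Without an adjustment, 8 of the 30 had a p under 0.05, all of them lower, against 5.68% of all genes. In 4 of the 30 (Hmgcs1, Acat2, Dhcr7 and Insig1) every knockout library lay below every control, against 1.27% of all genes. Log2 fold changes, knockout minus control throughout, were negative in 23 of 30 against 50.5% of all genes, with a median of -0.12 against 0.00 over all tested genes.

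**Figure D2:**
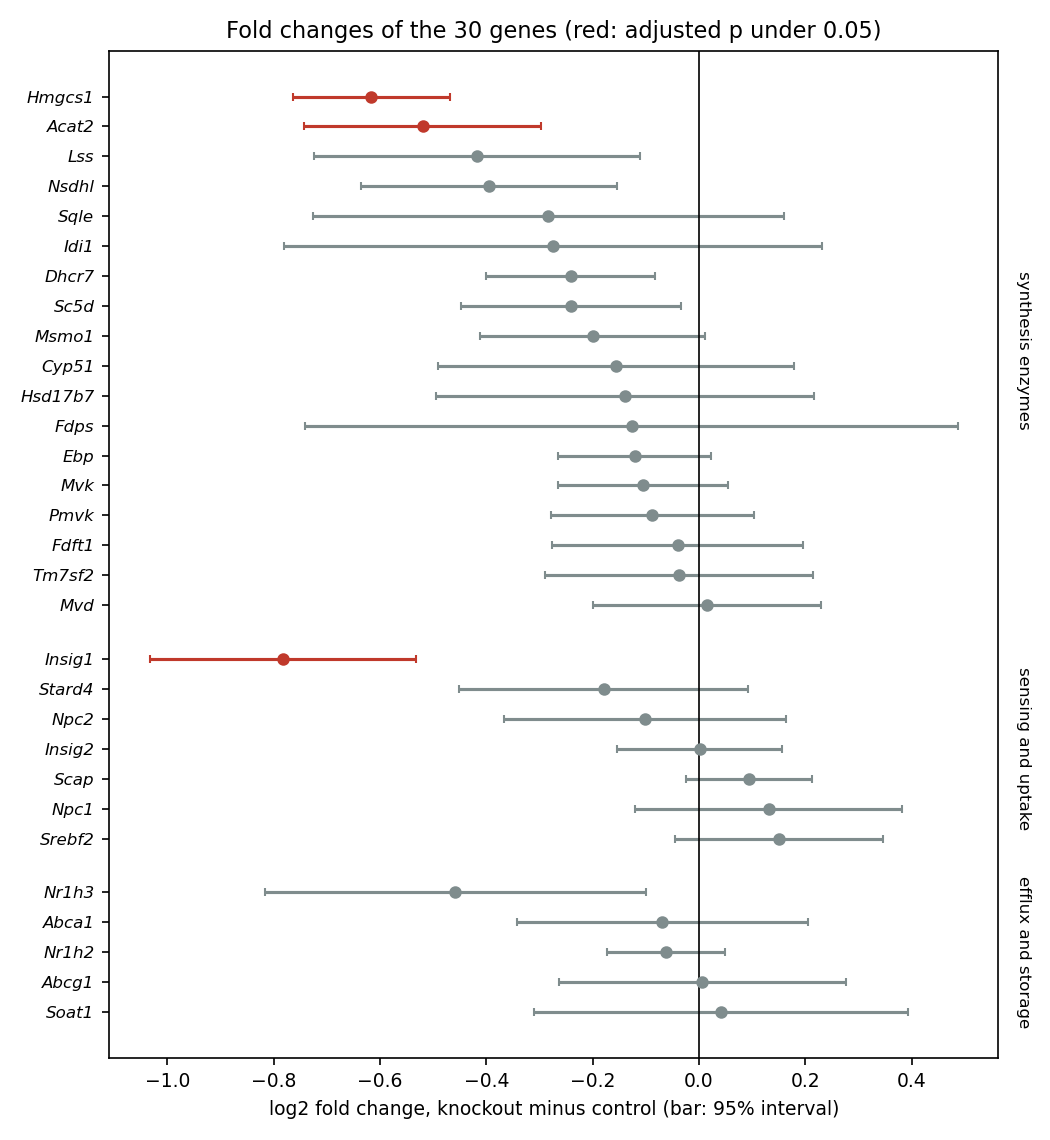
Log2 fold change of knockout minus control for each of the 30 genes (points, edgeR; bars, 95% interval), grouped by role, with genes of adjusted p under 0.05 in red. Hmgcs1 (-0.62), Acat2 (-0.52) and Insig1 (-0.78) are red, and 15 of the 16 other synthesis enzymes lie left of 0.

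The first steps of the pathway held the largest difference among the synthesis enzymes. Hmgcs1 (ENSMUSG00000093930, chromosome 13, 119690379 to 119708260, plus strand, GRCm38) encodes the cytosolic synthase that makes HMG-CoA. Its level was 52.02 CPM at the lowest, 54.9 at the median and 62.2 at the highest in knockout, against 81.5, 82.8 and 98.2 CPM in control. The groups were well apart, with the highest knockout library nearly 20 CPM under the lowest control. Hmgcs1 averaged 56.2 ± 4.47 CPM in knockout and 86.2 ± 6.47 CPM in control (SD, n = 6 each), 65.2% of the control level, with a log2 fold change of -0.62 (SE 0.07, adjusted p = 0.00637, edgeR). Its call held whichever of the 12 libraries was dropped, at adjusted p between 0.00459 and 0.0279. The antisense gene Gm48342, which overlaps 12.1% of its exon bases, averaged 0.0737 CPM in knockout and 0.0400 CPM in control.

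Acat2 (ENSMUSG00000023832, chromosome 17, 12942890 to 12960747, minus strand), the thiolase that joins acetyl-CoA into acetoacetyl-CoA just before Hmgcs1, fell as well. Its lowest, median and highest levels were 15.4, 18.4 and 21.7 CPM in knockout, against 23.6, 25.5 and 32.1 CPM in control. The groups did not overlap, though knockout replicate 6 and control replicate 6 were under 2 CPM apart. Acat2 averaged 18.4 ± 2.60 CPM in knockout and 26.4 ± 3.05 CPM in control (SD, n = 6 each), a log2 fold change of -0.52 (SE 0.10, adjusted p = 0.0330, edgeR). The call was lost, at adjusted p from 0.0586 to 0.0978, without knockout replicate 3, 4 or 5 or control replicate 1, 2, 3, 4 or 5. Acat2 shares 45.9% of its 50-base words with its neighbour copy Acat3, so reads may be split between them; Acat3 itself stood at 0.581 ± 0.261 CPM in knockout and 0.846 ± 0.406 CPM in control (SD, n = 6 each). With the counts of both summed, the log2 fold change was -0.52 (adjusted p = 0.0384, edgeR).

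From mevalonate to squalene, 0 of 6 enzymes passed the test, where 0.75% of all tested genes were called lower and 0.0488% higher. Mvk and Pmvk, the kinases of mevalonate and phosphomevalonate, had log2 fold changes of -0.10 and -0.09, and Mvd, the decarboxylase that follows, 0.02. Pmvk stood at a lowest of 14.1, a median of 16.9 and a highest of 19.4 CPM in knockout, against 16.2, 17.4 and 20.7 CPM in control, and the ranges overlapped over most of their width. Idi1, the isopentenyl isomerase, varied widely, from 3.31 to 5.46 CPM in knockout and from 2.44 to 8.32 CPM in control (log2 fold change -0.27). Fdft1, the squalene synthase, averaged 22.1 ± 3.63 CPM in knockout and 22.7 ± 2.29 CPM in control (SD, n = 6 each). It overlaps Ctsb on the opposite strand over 18.3% of its exon bases, and Ctsb, a lysosomal protease, averaged 4074 CPM in knockout and 3985 CPM in control, so the Fdft1 level is uncertain if strand was not used. Fdps, the farnesyl pyrophosphate synthase, had only 0.776 ± 0.336 CPM in knockout and 0.843 ± 0.149 CPM in control (SD, n = 6 each). Fdps shares 11.7% of its 50-base words with other genes and Idi1 30.5%, so their levels are uncertain. Fdps also overlaps Gm43738 on the same strand over 26.7% of its exon bases.

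The steps from squalene through lanosterol to cholesterol had negative log2 fold changes throughout, and none passed the adjusted threshold. Nsdhl, which removes a methyl group from the sterol ring, had a lowest of 9.82, a median of 13.8 and a highest of 14.98 CPM in knockout, against 14.9, 17.0 and 20.7 CPM in control. Knockout replicate 2 alone reached the control range. The means were 13.2 ± 1.91 CPM in knockout and 17.3 ± 2.12 CPM in control (SD, n = 6 each; log2 fold change -0.39, SE 0.11, adjusted p = 0.148, edgeR).

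Dhcr7, the reductase of the last step, was chosen for description after its values were seen, because its groups did not overlap. It ran from 15.2 to 16.9 CPM in knockout, with a median of 16.4, and from 17.4 to 22.1 CPM in control, with a median of 18.9. The difference was small, with a log2 fold change of -0.24 (SE 0.07) and an adjusted p of 0.197 (edgeR). Lss, the cyclase that forms lanosterol, had a log2 fold change of -0.42 (adjusted p = 0.275), and Sc5d, a sterol desaturase, -0.24 (adjusted p = 0.404).

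Ebp, the sterol isomerase, stood at a level per length of 14.4 ± 0.52 FPKM in knockout and 15.5 ± 1.44 FPKM in control (SD, n = 6 each), above Hmgcs1 in the knockout means (12.2 FPKM) and below it in the control means (18.5 FPKM). In CPM its lowest, median and highest values were 32.3, 33.1 and 35.5 in knockout, against 30.7, 36.2 and 40.6 in control. The knockout range lay wholly within the control range. The other enzymes of this stretch were Sqle, the squalene epoxidase (-0.28), Cyp51, the lanosterol demethylase (-0.16), Msmo1, a sterol methyl oxidase (-0.20), Hsd17b7, a ketosteroid reductase (-0.14), and Tm7sf2, a sterol reductase (-0.04), with adjusted p from 0.567 to 0.981. The lowest bound of their 95% intervals for the log2 fold change was -0.73, for Sqle, and the highest 0.22, for Hsd17b7.

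**Figure D3:**
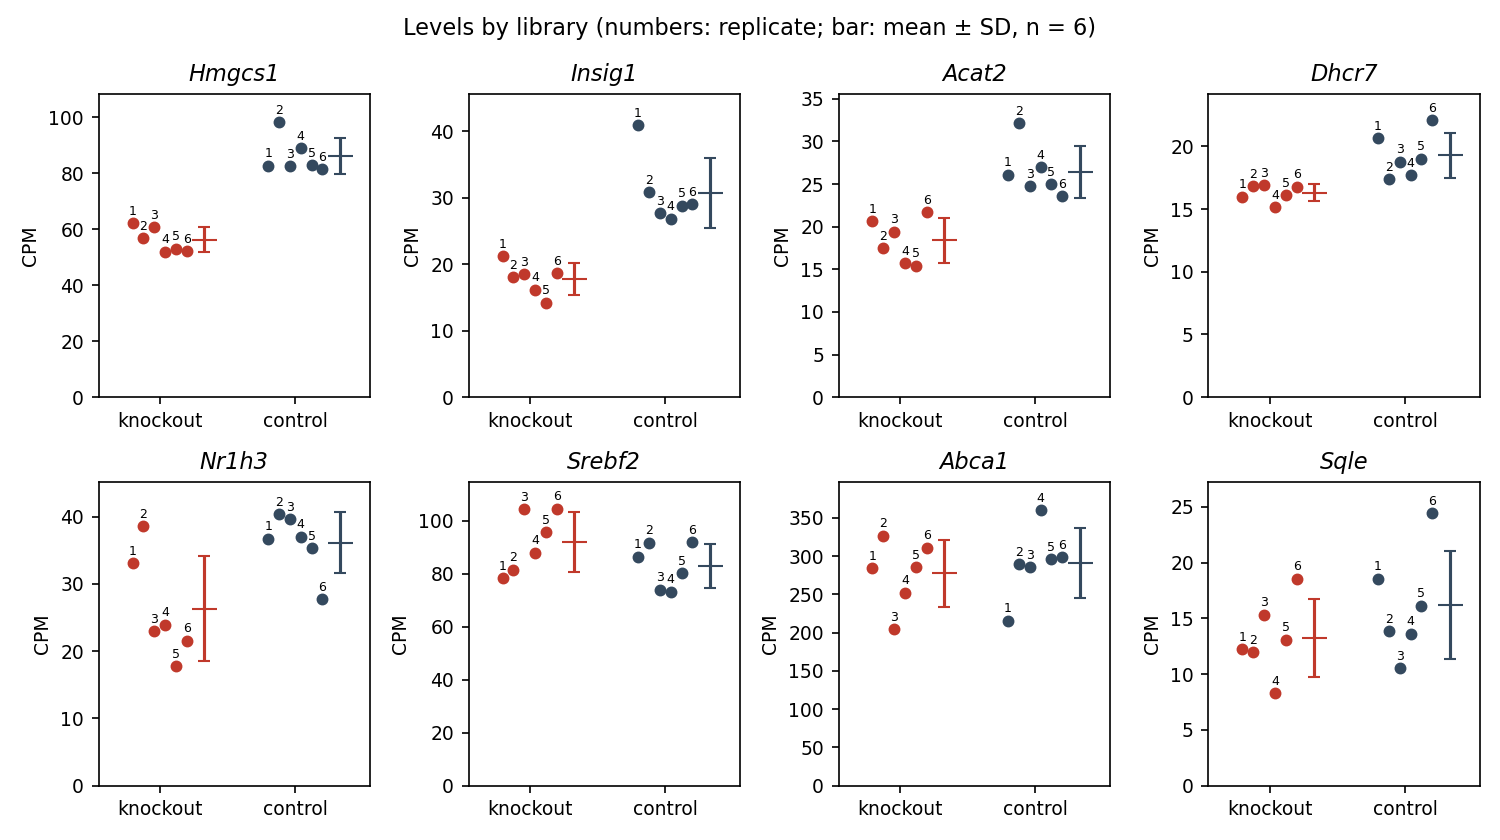
CPM of 8 of the genes in each library (points numbered by replicate; y axis, CPM from 0; bars, mean ± SD, n = 6), knockout in red and control in dark blue. Hmgcs1, Insig1, Acat2 and Dhcr7 show no overlap between the groups, whereas Nr1h3, Srebf2, Abca1 and Sqle overlap.

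As a group, 17 of 18 synthesis enzymes had a negative log2 fold change, against 50.5% of all tested genes. Their median was -0.18, with a range from -0.62 to 0.02. Of the 18 enzymes, 2 fell, against 0.75% of all tested genes. Under the other scalings, tests and filters and with each library left out, between 15 and 18 of them were negative. Their summed level was 297 ± 16.7 CPM in knockout and 363 ± 15.4 CPM in control (SD, n = 6 each), 277 to 320 CPM in knockout and 344 to 383 CPM in control. The sums did not overlap, but they are carried in part by the genes that fell: Hmgcs1 made up 18.9% ± 1.19 of the sum in knockout and 23.7% ± 1.77 in control (SD, n = 6 each). Without Hmgcs1 and Acat2, the 16 other enzymes summed to 223 ± 12.4 CPM in knockout and 251 ± 16.0 CPM in control (SD, n = 6 each). The mean was thus still lower in knockout, but the ranges of 210 to 240 CPM in knockout and 233 to 278 CPM in control overlapped. Among single libraries, knockout replicate 4 was the lowest of 12 for 9 of the 18 enzymes, and control replicate 6 the highest of 12 for 7.

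**Figure D4:**
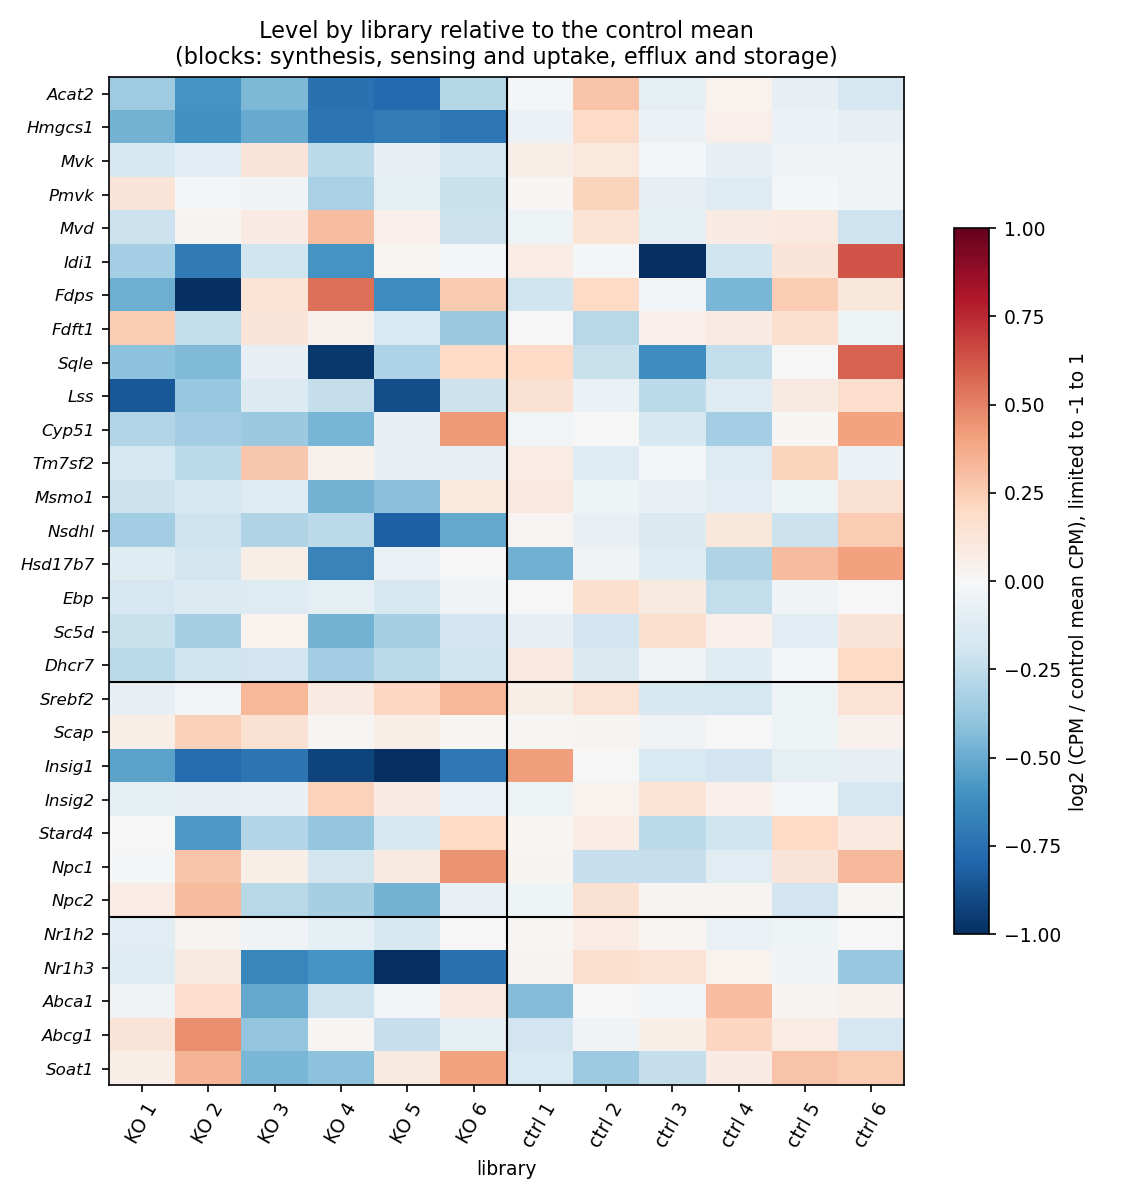
Level of each of the 30 genes (rows, in pathway order within 3 blocks) in each library (columns, knockout left) as the log2 ratio of its CPM to the control mean, limited to -1 to 1. The Hmgcs1, Acat2, Insig1, Dhcr7, Lss, Nsdhl and Ebp rows lie below the control mean in all 6 knockout columns, while the Srebf2 and Scap rows do not.

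Among the sensing genes, the fall was in Insig1. Insig1 (ENSMUSG00000045294, chromosome 5, 28071363 to 28078662, plus strand) encodes the endoplasmic reticulum protein that retains Scap when sterol is high. It stood at a lowest of 14.2, a median of 18.3 and a highest of 21.2 CPM in knockout, against 26.8, 28.9 and 41.0 CPM in control. The groups were apart, and control replicate 1 stood above the other controls, which lay from 26.8 to 30.9 CPM. Insig1 averaged 17.8 ± 2.39 CPM in knockout and 30.7 ± 5.22 CPM in control (SD, n = 6 each), 58.0% of the control level (log2 fold change -0.78, SE 0.12, adjusted p = 0.0151, edgeR). The call held in 10 of 12 fits that each dropped a library, also without control replicate 1, and was lost at adjusted p = 0.0532 and 0.0514 without knockout replicate 3 or 4.

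Insig2, the other Insig gene, encodes a protein of the same action that is not switched on by SREBP. It ran from 44.2 to 55.5 CPM in knockout (median 45.04) and from 42.1 to 51.9 CPM in control (median 47.6). Its log2 fold change was 0.00, with a 95% interval from -0.15 to 0.16, which does not reach the value of -0.78 seen for Insig1. Per length, Insig1 stood at 5.73 ± 0.79 FPKM in knockout and 9.80 ± 1.64 FPKM in control, and Insig2 at 13.6 ± 1.24 FPKM in knockout and 13.5 ± 0.93 FPKM in control (SD, n = 6 each).

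The transcripts of the sensor and of the transcription factor had positive log2 fold changes that did not pass the test. Srebf2 had a lowest of 78.3, a median of 91.8 and a highest of 104.6 CPM in knockout, against 73.3, 83.4 and 91.9 CPM in control. Knockout replicates 3, 5 and 6 lay above all controls and the others within their range (log2 fold change 0.15, 95% interval -0.04 to 0.35, adjusted p = 0.700, edgeR). Scap ran from 37.9 to 44.3 CPM in knockout (median 39.4) and from 36.2 to 38.7 CPM in control (median 37.8). Knockout replicates 1, 2, 3 and 5 stood above every control, by a small margin (log2 fold change 0.09, SE 0.06, adjusted p = 0.678, edgeR). Scap overlaps 5830462I19Rik on the opposite strand over 13.2% of its exon bases, so its level is uncertain if strand was not used. The counts are of transcripts, and the cut, active form of SREBP2 was not measured.

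Genes that move sterol within the cell did not pass the test. Npc2, the soluble lysosomal protein that hands cholesterol to Npc1, had the highest level per length of the 30 genes, 91.9 ± 19.3 FPKM in knockout and 98.0 ± 7.46 FPKM in control (SD, n = 6 each). Its lowest, median and highest values were 390, 479 and 672 CPM in knockout, against 473, 546 and 598 CPM in control. Knockout was the more spread group, with replicate 2 above and replicates 3, 4 and 5 below all controls. Npc1, the membrane exporter of lysosomal cholesterol, averaged 70.3 ± 11.1 CPM in knockout and 64.2 ± 10.01 CPM in control, and Stard4, a cytosolic sterol carrier, 16.5 ± 3.22 CPM in knockout and 18.7 ± 2.27 CPM in control (SD, n = 6 each).

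The LXR genes and their exporters had 0 of 5 members past the threshold, where 0.75% of all tested genes were called lower and 0.0488% higher. Nr1h3, which encodes LXR alpha, the form abundant in macrophages and fat, had the largest difference of the class. It stood at a lowest of 17.8, a median of 23.5 and a highest of 38.5 CPM in knockout, against 27.8, 36.9 and 40.3 CPM in control. Knockout replicates 3, 4, 5 and 6 lay below all controls, whereas replicates 1 and 2, at 33.03 and 38.5 CPM, lay within the control range. The means were 26.3 ± 7.84 CPM in knockout and 36.1 ± 4.51 CPM in control (SD, n = 6 each; log2 fold change -0.46, SE 0.17, adjusted p = 0.322, edgeR). With limma-voom and quality weights the adjusted p was 0.0330; over all other settings and dropped libraries it ran up to 0.576. Knockout replicates 1 and 2 also had the highest adipocyte marker sums of their group, at 2652 and 2391 CPM, against 712 to 1616 CPM in the other 4. Their macrophage marker sums were 7917 and 10461 CPM, against 6011 to 9098 CPM in the other 4. Of the macrophage markers, C1qa, C1qb and C1qc were also highest in knockout replicates 1 and 2, whereas Mrc1 and Adgre1 were highest in replicate 6. The part of fat cell or macrophage RNA in the Nr1h3 values was not tested.

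Nr1h2, which encodes the widely expressed LXR beta, stood at like levels in both groups. It ran from 58.9 to 66.9 CPM in knockout (median 62.9) and from 62.9 to 69.2 CPM in control (median 66.0), with a log2 fold change of -0.06 and a 95% interval from -0.17 to 0.05. Abca1, which loads cholesterol onto apolipoproteins and whose promoter holds the DR4 repeat printed above, had a lowest of 204, a median of 285 and a highest of 327 CPM in knockout, against 216, 293 and 360 CPM in control. The ranges overlapped almost fully (log2 fold change -0.07, 95% interval -0.34 to 0.21, adjusted p = 0.955, edgeR).

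Abcg1, which exports cholesterol to lipoprotein particles, ran from 68.7 to 124 CPM in knockout (median 87.8) and from 78.9 to 105 CPM in control (median 91.1), a log2 fold change of 0.01. Soat1, the enzyme that esterifies cholesterol for storage in droplets, ran from 79.6 to 144 CPM in knockout and from 85.2 to 134 CPM in control, a log2 fold change of 0.04. Knockout replicate 2 was the highest knockout library for Abca1, Abcg1 and Npc2 and second for Soat1, and replicate 3 the lowest for Abca1, Abcg1 and Soat1. Within knockout, the macrophage marker sum was likewise highest in replicate 2, at 10461 CPM, and lowest in replicate 3, at 6011 CPM. Within control, replicate 2 had the highest macrophage sum, at 9284 CPM, and the highest Npc2, at 598 CPM, but the lowest Soat1, at 85.2 CPM. Abca1 and Abcg1 were highest in control replicate 4, at 360 and 105 CPM. Much of the macrophage sum is Lyz2, at means of 3891 CPM in knockout and 4637 CPM in control. The part of macrophage RNA in these values was not tested.

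**Figure D5:**
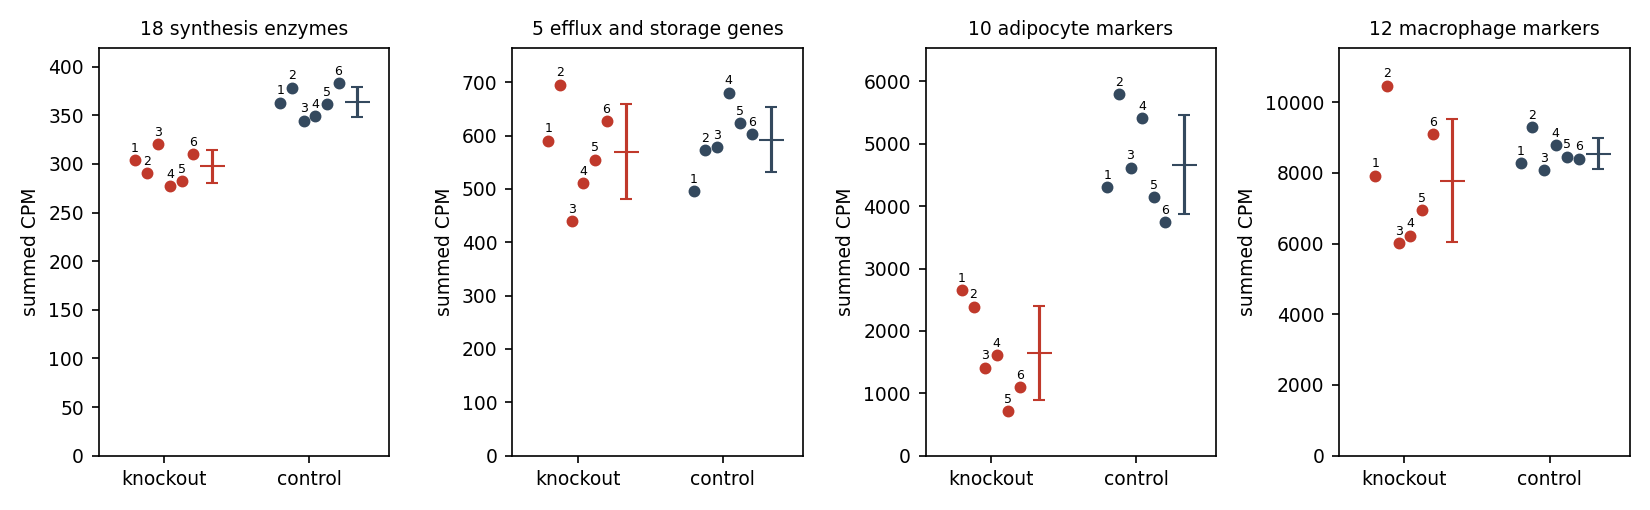
Summed CPM per library (points numbered by replicate; bars, mean ± SD, n = 6) of the 18 synthesis enzymes, the 5 efflux and storage genes, 10 adipocyte markers and 12 macrophage markers, knockout in red and control in dark blue. The synthesis and adipocyte sums do not overlap between groups, whereas the efflux and macrophage sums do.

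The adipocyte marker sums and the genes that fell were compared library by library. All 6 knockout libraries were below all 6 controls in each of the adipocyte sum, Hmgcs1, Acat2 and Insig1. As Hmgcs1, Acat2 and Insig1 were taken because they fell in this comparison, that shared separation says nothing about fat cell RNA. Within the knockout group, replicate 5 had the lowest adipocyte sum, at 712 CPM, and the lowest Insig1 and Acat2, at 14.2 and 15.4 CPM, while its Hmgcs1 of 53.1 CPM was the third lowest. Replicate 1 had the highest adipocyte sum, at 2652 CPM, and the highest Hmgcs1 and Insig1, at 62.2 and 21.2 CPM. Replicate 6 was mixed, with an adipocyte sum of 1099 CPM, the second lowest. It had the highest Acat2 of the group, at 21.7 CPM, and the second highest Insig1, at 18.7 CPM. Its Hmgcs1, at 52.2 CPM, was the second lowest. The part of fat cell RNA in these falls was not tested.

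In order of level per length, Npc2 stood apart at the top and Fdps at the bottom, each with no overlap with its neighbour over all 12 libraries. Between them every gene overlapped the next in the order: Abca1, Abcg1 and Nr1h2 followed Npc2, at means over all libraries of 27.2, 22.03 and 19.01 FPKM, then Hmgcs1 and Ebp at 15.3 and 14.95 FPKM. The lowest after Fdps, at 0.191 FPKM, were Lss, Tm7sf2 and Idi1 at 0.979, 1.07 and 1.39 FPKM. Tm7sf2 overlaps Vps51 on the same strand over 12.1% of its exon bases. Its level is therefore uncertain, as are those of Fdps and Idi1.

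Beyond the 30 genes, 39 others of the pathway were counted, of which 36 were tested, with 1 lower, 0 higher and a median log2 fold change of -0.01. The shares over all tested genes were 0.75% lower and 0.0488% higher. Of the 16 other genes of sensing, uptake and sterol transport, Srebf1, the SREBP gene that mainly drives fatty acid synthesis, was the one that fell. It ran from 58.3 to 93.9 CPM in knockout (median 85.4) and from 115 to 178 CPM in control (median 138), with no overlap (log2 fold change -0.83, SE 0.14, adjusted p = 0.0208, edgeR); the call was lost, at adjusted p up to 0.0611, without knockout replicate 3 or 4 or control replicate 2 or 4. Scarb1, the receptor for high-density lipoprotein, averaged 39.1 ± 8.78 CPM in knockout and 48.6 ± 6.78 CPM in control (SD, n = 6 each; adjusted p = 0.460).

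Of the 12 tested genes of LXR action, oxysterol synthesis and storage, 0 passed, where 0.75% of all tested genes were called lower and 0.0488% higher. Srebf1, which fell, was counted among the sensing genes and not here. A RefSeq promoter of Srebf1, 12110 bases from its gene start in the count table, held the DR4 repeat at -182 to -168 on the opposite strand. The part of LXR in the Srebf1 fall was not tested. Lpcat3, an LXR target that remodels phospholipids, had a log2 fold change of -0.27 (adjusted p = 0.131), and Arl4c, another LXR target, 0.31 (adjusted p = 0.360), so these targets lay on opposite sides of 0. Of 8 tested genes of isoprenoid branches and sterol reduction, 0 passed, against the same shares of all tested genes. Nus1, a subunit of the enzyme that makes dolichol precursors, had a log2 fold change of -0.18 (adjusted p = 0.512), and Acat1, the mitochondrial thiolase, -0.20 (adjusted p = 0.572).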

How the data were processed

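RNA of 12 whole-muscle samples was poly-T selected before Illumina sequencing, per the labels' protocols. The authors deposited unnormalized gene read counts and, for the same libraries, FPKM values, which the authors scaled by gene length and library size. Per the submitters' processing notes, fastp, HISAT2 2.0.5 and featureCounts were used with GRCm38; the strand setting of the counting was not found in the labels. The members and gene lists were chosen with earlier results of these data known.

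Counts were filtered with filterByExpr (minimum count 10, minimum total 15), scaled by TMM and tested with robust edgeR 4.0.16 quasi-likelihood fits in R 4.3.3, knockout against control. P-values were adjusted by Benjamini-Hochberg over 16393 genes, with a threshold of 0.05; standard errors were taken from the F statistic. The step was also run on simulated counts with the same dispersion for every gene, which does not show how it performs on these libraries. Values are printed for the genes past the threshold and, in each class, the 3 with the smallest p and the 3 with the highest FPKM; CPM values of Idi1, Fdft1, Fdps, Dhcr7, Npc1, Stard4 and Soat1 were added after they were seen, and the other members are given by fold change. Counts of the 30 pairs of libraries within groups differed beyond sampling noise (chi-square per degree of freedom 13.1 to 160.8). Alternatives used DESeq2 1.42.0, limma 3.58.1, other scalings and filters, FPKM, a replicate block and each library left out. Sequence shared between genes was measured in words of 50 bases, using GENCODE M21.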

Additional observations from a re-analysis of the deposited data

Results flagged for a closer look

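In 3 of 60 groups of 6 libraries (30 genes, 2 groups each), 1 library stood far from the other 5 by Dixon's criterion; chance gives about 1 in 20. Knockout replicate 6 was high for Cyp51, at 25.8 CPM against 13.9 to 18.2 CPM in the other knockouts. Control replicate 1 was high for Insig1, at 41.0 CPM against 26.8 to 30.9 CPM in the other controls. Control replicate 2 was high for Pmvk, at 20.7 CPM against 16.2 to 17.9 CPM in the other controls.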

How the results depend on the processing

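Hmgcs1 kept its call in all 9 other scalings, tests, filters and inputs and in all 12 fits with a library left out, Insig1 in 9 of 9 and 10 of 12, and Acat2 in 9 of 10, its sum with Acat3 (chosen after seeing the data) among them, and 4 of 12. Over all genes, 131 passed in the fit reported, 399 with DESeq2, 389 with limma-voom and quality weights, and 6 to 214 with a library left out. The 30 genes gave 3 calls, or 4 with limma-voom and quality weights, Nr1h3 among them, and 1 to 3 with a library left out. The other pathway genes gave 1, or 2 with limma-voom and 0 to 1 with a library left out. The labels do not say whether same-numbered libraries are paired. Their deviations from the group means correlated from -0.133 to 0.464. The best partner was the library of the same number for replicate 6 and for no other. These correlations cannot exclude that some samples were paired. With a replicate block, 236 genes passed, 2 of the 30 among them, and Acat2 had an adjusted p of 0.0519; the cause was not tested.

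Changes near 0 turned sign in some settings, each without a call. Abcg1 had -0.11 with limma-voom, -0.012 with the replicate block, and -0.0023 and -0.0031 with log2(FPKM + 1) and log2(FPKM + 0.1). Soat1 had -0.055 with limma-voom, and Insig2 -0.00027 with the block. With a library left out, the ranges were -0.14 to 0.010 for Abca1, -0.10 to 0.075 for Abcg1, -0.042 to 0.13 for Soat1, -0.036 to 0.030 for Insig2, -0.036 to 0.058 for Mvd, -0.11 to 0.018 for Fdft1, -0.27 to 0.019 for Fdps and -0.11 to 0.023 for Tm7sf2. Fdps had as few as 6 counts in a library, and it also shares sequence with other genes; the part of either in its spread was not tested.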

Other observations

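Idi2, the second isopentenyl isomerase, was below the filter on low counts and was not tested; it averaged 0.426 CPM in knockout and 0.106 CPM in control. Abcg5 and Abcg8, the sterol exporters of liver and gut, were also below the filter, at means of 0.0442 and 0.208 CPM in knockout and 0.0230 and 0.0411 CPM in control.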
